A study of Arabidopsis thaliana with 20 samples.

Results

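The genes described here are 98 Arabidopsis thaliana genes that carry only a locus code in the annotation used, such as AT4G16550, and whose transcript ratios climbed between day 1 and day 3 after flower formation was switched on. They were chosen from 15553 locus-named genes with a probe. A gene had to have no value at 2 or -2, the limits of the scale, a mean change from day 0 to day 1 between -0.2 and 0.2, a summed mean change of day 1 to day 2 and day 2 to day 3 of at least 0.3, and a sum above 0 in each of 4 tissue sets. Of these genes 14526 had no value at the limits, 14120 of them also met the condition on day 0 to day 1, 115 of those reached the sum, and 99 did so in every set. AT2G42990 met every condition but was left out by name, which left 98. Every change is given as a log10 ratio, later day over earlier day, so that a sum of 0.3 is a 2.00-fold difference. The ratios of days 0 to 3 chose the genes, and those values are given below as a description, with no test of change.

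The plants, 35S:AP1-GR ap1 cal, are mutant for both AP1 and CAL. A transgene under the 35S promoter, which is active in most plant tissues, makes AP1 joined to the steroid-binding domain of a glucocorticoid receptor. All of them, the day 0 tissue included, have this genotype. Inflorescences were treated with 1 µM dexamethasone, a synthetic hormone that lets the fusion protein enter the nucleus, and tissue from about 25 plants was pooled for each time point on days 0, 1, 2, 3, 4 and 5. Each of 20 two-colour microarrays compared consecutive days of 1 of 4 independent sets, 4 arrays an interval, with the later day in Cy5 on 2 of them and in Cy3 on the other 2. Tissue without dexamethasone was not analysed here, and what AP1 did cannot be told apart from what the treatment or the passing days did. The direction of the ratios is the likely one, since it rests on reading them as Cy5 over Cy3. If that order is wrong, every rise given below is a fall.

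AP1 is a MADS-domain transcription factor that gives a lateral meristem the identity of a flower, and CAL is its close relative. Without both, the inflorescence keeps forming meristems in place of flowers and looks like a small cauliflower, and switching AP1 on makes very many flowers start together. In a young flower the meristem first bulges from the inflorescence, then sepal primordia appear at its edge, and the inner organs follow. A locus code names a gene by its chromosome and its order along it and says nothing of what its product does. For 97 of the 98 genes the annotation holds no other gene name, so no role is given for them here. The exception is AT4G13840, which RefSeq also lists as CER26 (ECERIFERUM 26), a gene of wax synthesis on the plant surface.

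The gene with the largest sum was AT4G16550, with day 3 over day 1 ratios of 1.01, 1.06, 1.29 and 0.88 in sets 1 to 4, a mean of 1.06 ± 0.173 (SD, n = 4) or 11.4-fold. Its lowest set was above the highest set of 82 other genes on the list. AT1G16705 came next with 0.90, 1.13, 0.88 and 0.79, a mean of 0.93 ± 0.146 or 8.42-fold. These genes also had the highest day 0 to day 1 changes of the 10 leading genes, 0.17 each, close to the upper bound of 0.2. AT3G17580 measured 0.66, 0.60, 0.63 and 1.22, so its mean of 0.78 ± 0.297 (5.99-fold) was drawn up by set 4. AT4G26280 was more even, at 0.80, 0.82, 0.64 and 0.68 with a mean of 0.73 ± 0.086 (5.43-fold).

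AT3G43960 measured 0.79, 0.70, 0.76 and 0.55, a mean of 0.70 ± 0.109 (4.99-fold). AT1G13680 had 0.85, 0.78 and 0.72 in sets 1, 2 and 4 but 0.42 in set 3, with a mean of 0.69 ± 0.192 (4.93-fold). AT3G43110 was even across the sets, from 0.63 to 0.79, with a mean of 0.69 ± 0.075 (4.91-fold). AT4G01170 held 0.74, 0.78 and 0.88 in sets 1 to 3 against 0.33 in set 4, a mean of 0.68 ± 0.243 (4.84-fold). The last of the 10 were AT1G05540, with 0.55, 0.65, 0.74 and 0.72 (4.62-fold), and AT5G15080, with 0.63, 0.59, 0.43 and 0.93 (4.42-fold). In all 10 genes every set lay above 0.3, the value asked of the mean alone.

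**Figure D1:**
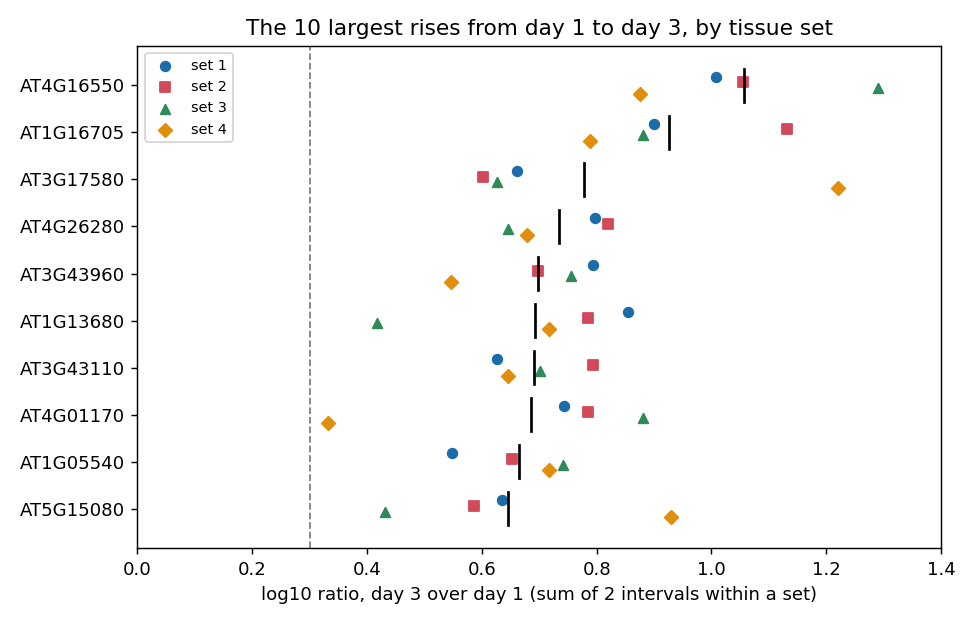
Day 3 over day 1 log10 ratios (x axis, the sum of both intervals within a set) of the 10 genes with the largest sums, by tissue set (symbols), with the mean as a black bar and the threshold of 0.3 as a dashed line. All 40 points lie to the right of the line, with set 4 of AT4G01170 nearest to it at 0.33 and set 3 of AT4G16550 farthest at 1.29.

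Most of the list was more modest. The median sum was 0.39, or 2.47-fold, against -0.00 over all features, and 53 of the 98 genes lay below 0.4, 29 between 0.4 and 0.6, and 16 at 0.6 or above. The sets gave similar medians, 0.41, 0.45, 0.37 and 0.39 in sets 1 to 4. Single genes differed more, and set 3 was the highest set in 28 genes and the lowest in 38. In 31 genes every set reached 0.3, while in 19 the lowest set measured under 0.1. The SD over sets had a median of 0.163 and ran from 0.019 in AT1G60590, whose sets lay between 0.365 and 0.405, to 0.50 in AT1G07310, where set 3 measured 1.08 and the other sets 0.12 or less. Just inside the threshold stood AT5G01075 (0.3001), AT2G10610 (0.3002) and AT5G50830 (0.3005), and just outside it AT1G12500 (0.2999), AT5G13400 (0.2992) and AT1G54010 (0.2965). AT2G10610 shows how little a mean near the threshold can say, since its sets measured 0.0049, 0.737, 0.358 and 0.101. Genes on either side of the threshold are alike in these values.

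Within the window the climb was shared between both intervals in most genes. The median change was 0.22 from day 1 to day 2 and 0.19 from day 2 to day 3, and 58 genes had the larger mean change in the earlier interval and 40 in the later one. The order was the same in all 4 sets in few of them. In 9 genes the change from day 1 to day 2 was the larger in every set, in 8 genes the change from day 2 to day 3 was, and 81 were mixed. Across the 98 genes the means of these intervals had a Spearman correlation of -0.257, a description of genes that were chosen for their sum and whose ratios share the day 2 tissue.

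The 9 early genes were AT4G01170, AT1G22910, AT1G78820, AT2G26390, AT5G66800, AT1G78830, AT1G47860, AT1G74130 and AT3G04960. AT4G01170 measured 0.52 from day 1 to day 2 and 0.17 from day 2 to day 3, and AT3G04960 had 85.9% of its sum of 0.30 in the earlier interval. The 8 late genes were AT1G05540, AT4G18970, AT1G15260, AT1G30170, AT5G01870, AT3G46880, AT4G16560 and AT5G44680. AT1G15260 measured -0.02, 0.16, -0.11 and 0.21 from day 1 to day 2 in sets 1 to 4, and 0.44, 0.59, 0.46 and 0.81 from day 2 to day 3. The sets overlap 0 in the first of these intervals and are all well above it in the second. AT4G16560 had the single mean below 0 from day 1 to day 2, -0.04, followed by 0.42. In AT3G46880 the late change of 0.31 was drawn up by set 1, at 0.68 against 0.29, 0.11 and 0.17 in the others.

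**Figure D2:**
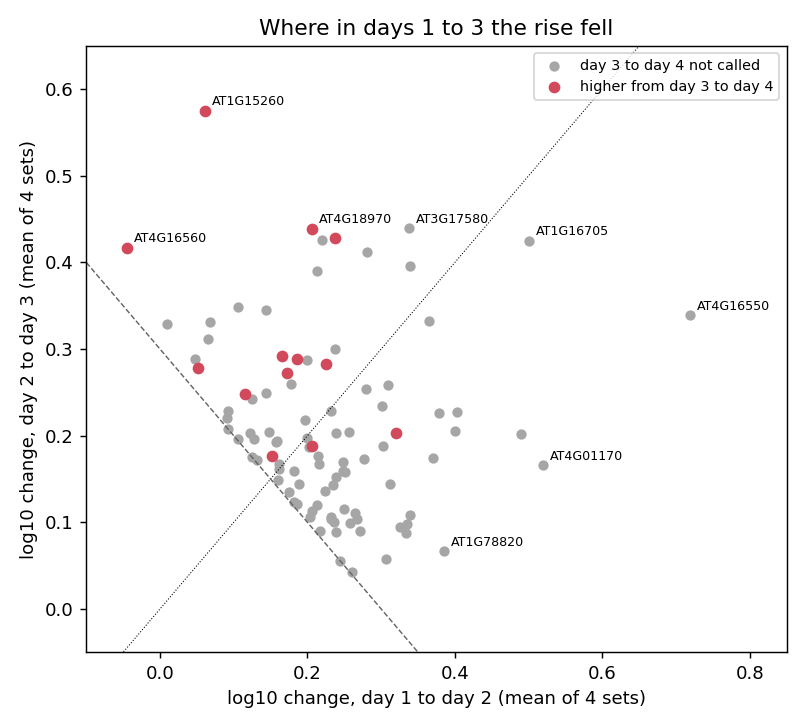
Mean log10 change from day 1 to day 2 (x axis) against day 2 to day 3 (y axis) for the 98 genes, each point the mean of 4 sets, with genes higher from day 3 to day 4 in red, equal changes on the dotted line and the threshold sum of 0.3 on the dashed line. AT4G16550 lies farthest right at 0.72 and AT1G15260 highest at 0.58, and 11 of the 13 red points lie above the dotted line.

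The day 3 to day 4 ratios entered the choice of the genes only through the limits, since a value at 2 or -2 on any array left a gene out. The features of the background were not filtered in this way. The day 3 to day 4 ratios also share the day 3 tissue with the ratios that chose the genes. The test of this interval took its spread and its dye coefficient from all arrays, those of days 0 to 3 included. Those arrays chose the genes, in part for a sum above 0 in every set. Whether the spread is too small for the list for that reason was not tested. The fit to the 4 arrays of this interval alone, given below, leaves those arrays out. From day 3 to day 4, 13 of the 98 genes rose and 0 fell in limma's test across all 28634 features (Benjamini-Hochberg adjusted p under 0.05), that is 13.3% higher where 1.35% of all features were called, 0.981% higher and 0.370% lower. At an unadjusted p under 0.05 there were 34 higher (34.7%, against 5.72% of all features) and 3 lower (3.06% against 4.07%). The median change of the list was 0.09, or 1.23-fold, against 0.00 over all features, and 73 of the 98 means were above 0. In 39 genes all 4 sets were above 0 (background 8.14%) and in 3 all were below (background 8.25%). With the tissue set as a block 7 of the 13 remained called (7.14%, against 0.622% of all features higher in that fit), and with arrays scaled to 1 spread 22 genes were (22.4% against 1.56%). Without set 1 there were 4 (4.08% against 0.356%), without set 2 there were 6 (6.12% against 0.349%), and without set 4 also 6 (6.12% against 0.318%). Without set 3 there were 11 (11.2% against 0.719%), of which 9 were among the 13. With the 4 arrays of this interval fitted alone limma called 0 of the list and 0.0664% of all features. At an unadjusted p under 0.05 that fit gave 37 higher (37.8%, against 4.89% of all features) and 5 lower (5.10% against 4.31%).

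AT1G15260 rose most from day 3 to day 4, with 0.54, 0.44, 0.61 and 0.46 in sets 1 to 4, a change of 0.51 ± 0.077 (SD, n = 4) or 3.27-fold (limma adjusted p = 4.15e-04). AT1G05540 rose 2.84-fold (0.45 ± 0.190, limma adjusted p = 9.87e-04), from 0.53, 0.23, 0.67 and 0.37. AT1G70720 rose 2.81-fold (0.45 ± 0.179, limma adjusted p = 0.00123), from 0.53, 0.37, 0.65 and 0.24. In all 3 genes sets 1 and 3 lay above sets 2 and 4, and these pairs of sets differ in which dye carried the later day. Within this interval a dye effect and a difference between these pairs of sets cannot be told apart. No set of these genes came near 0. Their calls held with the block (adjusted p = 0.00254, 0.00627 and 0.00653) and with no dye coefficient, and AT1G05540 alone of the 3 lost its call when a set was left out (adjusted p = 0.0562 without set 1).

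AT4G18970 rose 2.56-fold (0.41 ± 0.108, limma adjusted p = 0.00673), with sets between 0.26 and 0.50, and was lost without set 1 (adjusted p = 0.111) and without set 3 (0.0958). AT3G46770 rose 2.32-fold (0.37 ± 0.144, limma adjusted p = 0.0261, or 0.0813 once sets were blocked), with sets between 0.20 and 0.55. AT4G16560 rose 2.11-fold (0.33 ± 0.125, limma adjusted p = 3.73e-04), from 0.16, 0.38, 0.30 and 0.45. AT1G60590 had the smallest SD among the called genes, at 0.19, 0.20, 0.27 and 0.23 (1.67-fold, limma adjusted p = 3.73e-04). The other 6 were AT2G40250, AT5G44680, AT2G02795, AT2G21550, AT1G22910 and AT3G29300, with rises from 1.42-fold to 2.05-fold. Of these AT5G44680 was called with the block (adjusted p = 0.0216) but lost without each of the 4 sets in turn (adjusted p from 0.0730 to 0.326), and the others were not called with the block (adjusted p from 0.0633 to 0.118). In all, AT1G15260, AT1G60590, AT1G70720 and AT4G16560 kept their calls whichever set was left out, and the other 9 of the 13 lost theirs without at least 1 set. AT3G29300 stood closest to the threshold (adjusted p = 0.0499), and its set 1 measured 0.035 against 0.15 to 0.24 in the other sets.

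**Figure D3:**
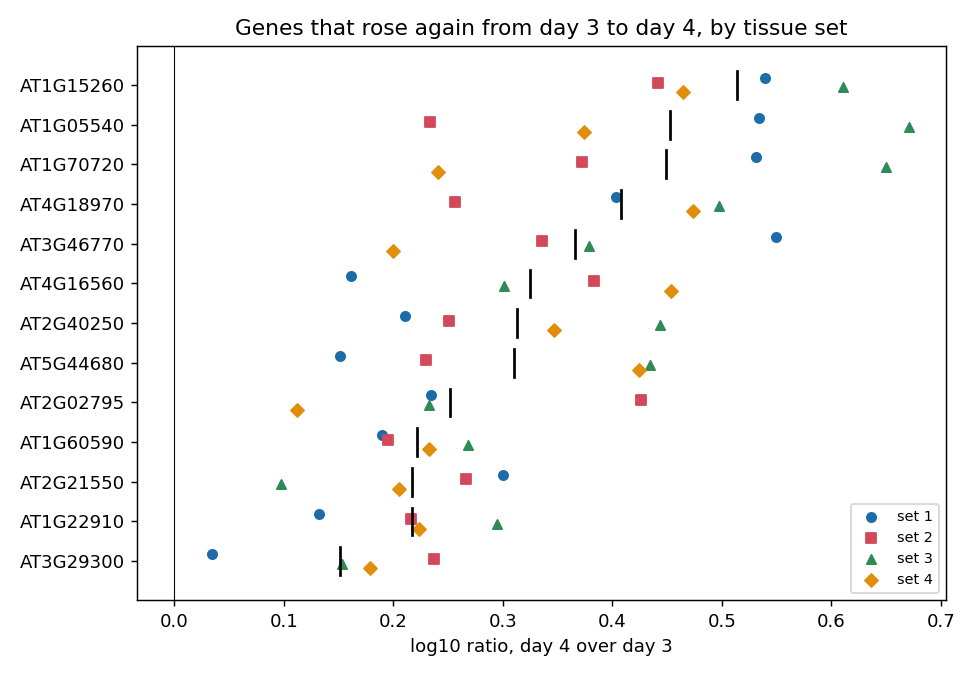
Log10 ratio of day 4 over day 3 (x axis) in each tissue set (symbols) for the 13 genes called higher in that interval, with the mean as a black bar. Every point lies above 0, from 0.035 in set 1 of AT3G29300 to 0.67 in set 3 of AT1G05540.

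Of the 10 leading genes AT1G05540 alone was called from day 3 to day 4, where 13 of the 98 genes (13.3%) were called. AT4G16550 measured 0.05, 0.14, 0.17 and 0.07 (adjusted p = 0.758) and AT1G16705 0.05, 0.25, 0.25 and 0.19 (adjusted p = 0.217), positive in every set but small beside their changes before day 3. AT3G17580 measured 0.35 ± 0.076 with all sets between 0.30 and 0.47 and still missed the threshold (limma adjusted p = 0.0905). Over the 98 genes the day 3 to day 4 mean had a Spearman correlation of 0.341 with the sum that chose them. The correlation was 0.58 with the day 2 to day 3 mean and -0.167 with the day 1 to day 2 mean. Day 3 is the later tissue in the sum and in the day 2 to day 3 mean. In the day 3 to day 4 mean it is the earlier tissue. What this sharing did to the correlations was not tested. The 8 late genes had a median of 0.32 from day 3 to day 4, with 7 of 8 means above 0, and the 9 early genes one of 0.03, with 6 of 9 above 0.

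The interval from day 4 to day 5 shares no tissue with the ratios that chose the genes. Its test still took its spread from all arrays, those that chose the genes included. AT1G15260 and AT4G16560 rose from day 4 to day 5 and no gene of the list fell in limma's test. That is 2 of 98, or 2.04%, where 0.758% of all features were called, 0.562% higher and 0.196% lower. At an unadjusted p under 0.05 there were 12 higher (12.2%, against 5.36% of all features) and 9 lower (9.18% against 5.96%). The median change was 0.01 against -0.00 over all features. In 11 genes every set was above 0 (background 5.48%) and in 10 every set was below (background 6.05%). AT1G15260 measured 0.33, 0.24, 0.51 and 0.34, a rise of 2.27-fold (0.36 ± 0.111, SD, n = 4, limma adjusted p = 0.0139), and its call was lost without each of the 4 sets in turn (adjusted p from 0.0738 to 0.123) and with scaled arrays (0.140). AT4G16560 measured 0.47, 0.15, 0.33 and 0.16, a rise of 1.90-fold (0.28 ± 0.149, limma adjusted p = 0.00218), lost without set 2 (adjusted p = 0.0705). Without set 2 neither gene, and no other gene of the list, passed in limma, where 0.122% of all features did. At an unadjusted p under 0.05 that fit gave 9 higher (9.18%, against 4.90% of all features) and 8 lower (8.16% against 4.03%). Both genes were also called in the interval before, and no other gene was called in both.

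The largest negative mean from day 4 to day 5 was that of AT4G01170, one of the 10 leading genes, with -0.33, -0.17, -0.36 and -0.24 in sets 1 to 4 (-0.27 ± 0.085, limma adjusted p = 0.121). All 4 sets were below 0, but the difference did not pass the test. AT1G14120 measured -0.24 ± 0.134 (adjusted p = 0.132) and AT5G18090 -0.21 ± 0.120 (adjusted p = 0.0934), also negative in every set. At the other end AT1G78830 measured 0.31 ± 0.229 (adjusted p = 0.174), with 0.62 in set 2 and 0.08 in set 1.

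Day 5 against day 3, the sum of the last 2 intervals within a set, gives what followed the window as a whole. Its earlier tissue, that of day 3, is also the later tissue of ratios that chose the genes. What this sharing did to the counts was not tested. AT4G16560 was the 1 gene of 98 that passed this test on 4 sums, where 0.231% of all features were called, 0.192% higher and 0.0384% lower. Its sums were 0.63, 0.53, 0.63 and 0.62, a rise of 4.01-fold (0.60 ± 0.046, SD, n = 4, limma adjusted p = 0.0360), and it was lost without any 1 of the sets. At an unadjusted p under 0.05 there were 42 higher (42.9%, against 7.85% of all features) and 10 lower (10.2% against 7.32%). In 44 genes all 4 sums were above 0 (background 11.9%) and in 12 all were below (background 13.2%). When the same quantity was taken as the sum of the interval coefficients of the fit to all arrays, 13 genes were higher and 3 lower, beside a background of 2.50% called, 1.76% higher and 0.737% lower, and with the block 8 and 2, beside 1.23% and 0.395%. The 3 lower genes, named after their values were seen, were AT4G01170 (-0.46 ± 0.176, adjusted p = 0.0255, and 0.0580 with the block), AT5G18090 (-0.37 ± 0.142, adjusted p = 0.0119) and AT1G18290 (-0.24 ± 0.140, adjusted p = 0.0228). The sets of AT4G01170 measured -0.30, -0.37, -0.48 and -0.70.

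Over the whole course of 5 days the 98 genes had a median summed change of 0.49, or 3.12-fold, which includes the ratios that chose them. In 97 of them the sum was above 0, and in 81 it was at least 0.3. It was largest in AT1G15260 (1.49, 30.9-fold), AT1G05540 (1.43, 26.6-fold) and AT4G16550 (1.37, 23.3-fold), whose summed changes were close in size but came at different times. AT4G16550 had gained most of its change by day 3, while AT1G15260 stood near its starting level until day 2. The lowest sum was that of AT1G79620, -0.03, whose window sum had been 0.375.

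**Figure D4:**
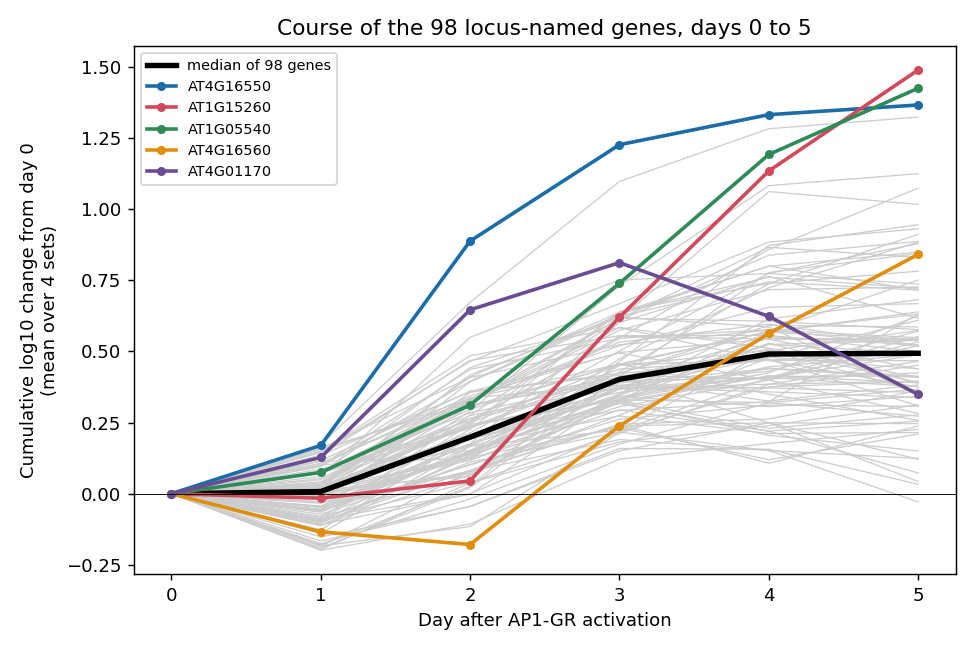
Cumulative mean log10 change from day 0 (y axis) by day after activation (x axis), with each of the 98 genes in grey, their median in black and 5 named genes in colour. The median stays near 0 at day 1 and ends at 0.49, AT1G15260 and AT1G05540 end highest at 1.49 and 1.43, and AT4G01170 turns down after day 3 to 0.35.

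The tissue was a mixture of cells from the inflorescence surface, so more cells of a type and more RNA per cell cannot be told apart. Two-colour ratios give no level of a gene within a sample, so a check of the tissue by its markers has to use changes. Of the inflorescence meristem genes fixed for this purpose 5 of 8 were measured (AGL24, FD, AGL42, AGL71 and AGL72), with a median sum over days 1 to 3 of -0.28. Their medians were -0.19 and -0.14 in the last 2 intervals, and 2 of the 5 were called lower from day 3 to day 4. Of the floral organ growth and polarity genes 4 of 14 were measured (JAG, RBE, YAB3 and PHV), with a median sum of 0.51. Their medians were 0.03 and -0.06 in the last 2 intervals, and 1 of the 4 was called lower from day 4 to day 5. Of the stomatal lineage genes MUTE and FMA were measured, with a median sum of 0.16 and a median of 0.74 from day 3 to day 4, when 1 of the 2 was called higher. Of the photosynthetic tissue genes RCA and LHCB4.1 were measured, with medians of 0.06 in the window and from day 3 to day 4 and of 0.16 from day 4 to day 5, when 1 of the 2 was called higher. Of the carpel and ovule genes 7 of 11 were measured (NGA1, NGA2, NGA3, NGA4, SHI, INO and SPT), with a median sum of 0.21 and medians of 0.07 and -0.01 in the last 2 intervals, in which 3 and 2 were called higher. Of the anther and sporocyte genes SPL and AMS were measured, with medians of -0.03, 0.11 and 0.03, and 1 of the 2 was called higher in each of the last 2 intervals. The stem cell and boundary genes CLV3, LAS and LOB had medians of -0.09, -0.10 and -0.06, with 1 called lower from day 4 to day 5, and the mitotic genes AUR1 and AUR2 medians of 0.16, -0.01 and 0.01, with no call. None of the 98 genes is in any of these lists. The part of any other cell type in the rises of the 98 genes was not tested.

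Genes with a symbol can be put beside the list, since 24 of them met every other condition. NGA2, a B3-domain gene of gynoecium development, led them with a sum of 0.82 ± 0.058 (6.56-fold), ahead of YAB3, which marks the lower side of young organs (0.58 ± 0.140), and NGA3 (0.56 ± 0.123). The next were scpl35, named as a serine carboxypeptidase-like gene (0.50 ± 0.127), IDD16, a zinc-finger gene (0.49 ± 0.091), and CYP71B24, of the cytochrome P450 family (0.40 ± 0.405). From day 3 to day 4, 7 of the 24 rose and 0 fell in limma's test. That is 29.2% higher, beside 13.3% of the 98 genes and 0.981% of all features, of which 0.370% fell. From day 4 to day 5, 4 rose and 0 fell. That is 16.7% higher, beside 2.04% of the 98 genes and 0.562% of all features, of which 0.196% fell. The median changes in these intervals were 0.05 and 0.03, against 0.09 and 0.01 for the 98 locus-named genes. The difference between the groups was not tested. Among 13937 locus-named genes that met the condition on day 0 to day 1 but had a sum between -0.3 and 0.3, 0.710% rose from day 3 to day 4 and the median was -0.00.

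**Figure D5:**
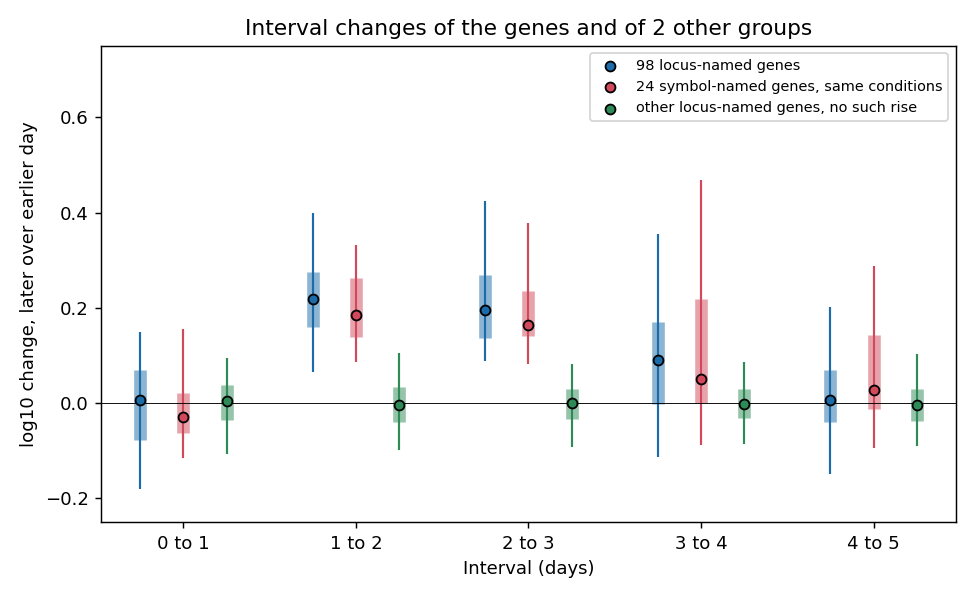
Mean log10 change in each interval (x axis, days) for the 98 locus-named genes, the 24 symbol-named genes that met the same conditions and 13937 other locus-named genes without such a rise, where the point is the median over genes, the thick bar runs from the 25th to the 75th percentile and the thin line from the 5th to the 95th. The conditions fixed the groups in the first 3 intervals. From day 3 to day 4 the 98 genes have a median of 0.09 and a 95th percentile of 0.36, and from day 4 to day 5 their median is 0.01.

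Some of the 98 genes lie next to each other in the genome, as the order of genes in RefSeq shows. The direct neighbours AT1G78820 and AT1G78830 were both early genes, and their sums followed the same sets: 0.13, 0.16, 0.98 and 0.53 in the one and 0.17, 0.11, 1.03 and 0.37 in the other. Set 3 was high in both and sets 1 and 2 low, so that neither mean (0.45 ± 0.398 and 0.42 ± 0.424) describes all sets. A high set 3 was not particular to this pair. It was also seen in AT5G37540 (0.23, 0.07, 1.03 and 0.23) and AT1G64450 (0.21, 0.06, 1.02 and 0.07), which lie elsewhere. The direct neighbours AT5G47330 and AT5G47340 measured 0.43, 0.43, 0.34 and 0.37 in the former and 0.41, 0.63, 0.07 and 0.30 in the latter. Sets 1 and 2 were the higher and set 3 the lowest in both, over a narrow range in AT5G47330 and a wide one in AT5G47340. AT4G16550 and AT4G16560, with 1 gene between them, differed in course: the former changed by 0.72 and 0.34 within the window and by 0.11 and 0.03 after it, the latter by -0.04 and 0.42 and then by 0.33 and 0.28. AT5G37250 and AT5G37280 had 4 genes between them and sums of 0.41 and 0.32. Whether probes of neighbouring genes share sequence was not tested.

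Measured direct neighbours outside the list were mostly flat. Of 85 such genes without a value at the limits 2, or 2.35%, had a sum of at least 0.3, compared with 85 of 15988 named genes outside the list, or 0.532%. These were scpl35, beside AT5G08250, with 0.50 beside 0.45, and AT1G53080, beside AT1G53070, with 0.43 beside 0.35. By chromosome 38 of the 98 genes lay on chromosome 1, 6 on chromosome 2, 18 on chromosome 3, 9 on chromosome 4 and 27 on chromosome 5. Chromosome 1 held 38.8% of them and 25.5% of all locus-named genes without a value at the limits, and chromosome 2 held 6.12% and 16.1%. Nearly all the genes were measured by 1 probe. For AT1G22910 the 2 probes gave sums of 0.53 and 0.52 and day 3 to day 4 changes of 0.18 and 0.25, and for AT1G74130 they gave sums of 0.34 and 0.32.

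CER26 (AT4G13840), the 1 gene of the list with a name among its synonyms, had sums of 0.46, 0.47, 0.24 and 0.31, a mean of 0.37 ± 0.113 or 2.35-fold. All sets were positive, with set 3 the lowest, and 71.8% of the sum fell in the interval from day 1 to day 2. After day 3 it measured -0.06 ± 0.15 (limma adjusted p = 0.868) and then 0.00 ± 0.153 (adjusted p = 1.00), with no call in either interval.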

How the data were processed

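The deposited values are read as log10 ratios, 1 column per two-colour array. Per the labels' protocols, amplified RNA made by in vitro transcription was labelled with Cy3 or Cy5. The sources used here give no background correction, normalization, log base, numerator or genome build. Base 10 was inferred because every array stops exactly at 2 and -2. Array medians lay between -0.0033 and 0.0120, so arrays had likely been centred. The ratios were taken as Cy5 over Cy3 and turned to later over earlier day. On 15 or more arrays, under both dye assignments, 416 probes stood at the upper limit and 0 at the lower. With each probe's mean removed, arrays of 1 interval with opposite assignment had a median correlation of -0.1185, below 0 in 18 of 20 pairs. Arrays of 1 interval with the same assignment had a median of -0.0082 over 10 pairs. Removing the mean itself lowers such correlations. Neither the limits nor the correlations can tell which dye is the numerator.

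Of 30741 spots 547 controls or unannotated ones were left out. Of 30194 probes 18740 had 1 gene name, 1 had several and the rest none; 18645 were matched to RefSeq (TAIR10.1, for names and gene order alone). Probes of a gene were averaged. Features needed a value on 3 or more of the 4 arrays in each interval, 28634 in all, with no filter on dim signal, and all 98 genes were among them. Precision is limited by the number of arrays; no depth applies.

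Intervals were tested with limma 3.58.1 in R 4.3.3 on all 20 arrays, with a coefficient for each of 5 intervals and 1 for dye (14 residual and 2.07 prior degrees of freedom), and day 5 against day 3 on 4 set sums, in which a dye effect cancels (3 residual, 1.6 prior). All p-values are two-sided and adjusted by Benjamini-Hochberg over all features. The fits were also run on simulated data with independent noise on each array. Those data hold neither tissue shared between intervals nor genes chosen by their values, so they cannot test these limits. Set numbers mark shared tissue per the labels; after removing interval and dye effects, arrays of 1 set in adjacent intervals had correlations of -0.1635 to 0.1521 (median -0.0833). The genes, lists and tests were chosen with earlier results of these data known. Genes named are the 10 largest sums, up to 6 rises and 6 falls called in each comparison with 1 sign in all sets, the 3 genes on either side of the threshold, the 6 largest symbol-named genes, and others singled out after their values were seen, which include all further locus codes in the text. A planned grouping by protein family and a promoter motif search were not run, because the tables used here hold neither product names nor sequences. Alternatives were a set block, no dye coefficient, 4 arrays alone, scaled arrays, single probes, another threshold and each set left out.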

Additional observations from a re-analysis of the deposited data

Results flagged for a closer look

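Among 88 groups of 4 sets examined for the genes named, 5 had a set whose gap to the others passed Dixon's critical value. Chance flags about 1 in 20 of groups that were not chosen by their values. The sums over the window chose the genes, so that rate does not apply to them and their flags are a description. AT3G17580 measured 1.221 in set 4 over the window, against 0.601 to 0.662 in the others. AT1G60590 measured 0.365 in set 1 over the window, against 0.40 to 0.405, a gap that is small in size. AT1G13680 measured -0.018 in set 4 from day 3 to day 4, against 0.154 to 0.182. AT4G16560 measured 0.534 in set 2 for day 5 against day 3, against 0.618 to 0.632, and AT4G26280 measured 0.287 in set 4, against 0.084 to 0.109. Set 4 was the set apart in 3 of the 5.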

How the results depend on the processing

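From day 3 to day 4 the 13 calls became 7 with the set as a replicate block and 22 with scaled arrays. With the 4 arrays alone there were 0. Without each set in turn there were 4 to 11 (4.08% to 11.2%, against 0.318% to 0.719% of all features higher). Of the 11 without set 3, 9 were among the 13. Every one of these calls was a rise. From day 4 to day 5 the 2 calls became 0 with the 4 arrays alone (9 higher and 9 lower at an unadjusted p under 0.05 in limma, 9.18% each against 2.90% and 2.18% of all features). There was 1 with scaled arrays (1.02%, against 0.321% of all features) and 0 to 2 without a set (against 0.122% to 0.335% of all features). Without set 4 the 2 were 1 rise and 1 fall, AT1G79620 (limma adjusted p = 0.0231). That is 1.02% each, against 0.283% and 0.0524% of all features. The block changed neither call of that interval. For day 5 against day 3 the 1 call became 16 as the sum of interval coefficients, 10 with the block in that fit, and 0 without each set in turn (lowest and highest 0, as over all features; at an unadjusted p under 0.05 in limma 29.6% to 38.8% of the list were higher and 7.14% to 11.2% lower, against 6.01% to 7.22% and 4.57% to 5.69% of all features). The 4-array fits and the sums over 3 sets use fewer samples. The 4-array fits also leave out the arrays that chose the genes. How much each of these changed the calls was not tested, and other causes were not tested. The list held 98 genes, 45 at a sum of at least 0.4, 104 to 129 without a set (69 to 86 of them shared) and 92 with scaled arrays (89 shared). With the sign turned on every array, 39 other genes met the mirrored conditions. The list's median from day 3 to day 4 was 0.0896, 0.1053 with scaled arrays and 0.0590 to 0.0965 without a set, and from day 4 to day 5 it was 0.0011 to 0.0212 without a set. Of 142 alternative tests of single calls 80 kept the call, 62 lost it and 0 changed direction. The array table gives no signal over background, so dim genes cannot be told from bright ones.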
